A study of Mus musculus with 8 samples.

Results

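Threonine, glycine, serine and creatine metabolism was followed through 10 genes, Tdh, Gcat, Gatm, Gnmt, Cbs, Cth, Phgdh, Psat1, Psph and Shmt2, among the 15047 genes measured by RNA-Seq in mouse pancreas. The genes were chosen by symbol, with Tdh selected on its HFD minus LFD difference, so the HFD and LFD values of the 10 genes are given as a description and not tested. All 10 were found in all 8 male mice, which were 3 mice on low-fat diet (LFD), 3 on high-fat diet (HFD) and 2 ob/ob mice. Mice of all groups began their chow at 4 weeks of age and stayed on it for 10 weeks. LFD and HFD mice were C57BL/6 wild type, with 60% of the HFD calories from fat. The ob/ob mice were C57BL/6J, lacked leptin and ate standard chow, so genotype and chow cannot be told apart against LFD.

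Per the study's methods, all 8 mice also carried an orthotopic transplant of mT organoids, grown from pancreatic tumours of a mouse model driven by Pdx1-Cre. As the study describes it, HFD mice became obese on their diet before the transplant, and LFD mice were the lean group. The time from transplant to RNA sampling was not given in the sources used here, so the age at sampling is unknown here. The sample labels name only pancreas, and the tissue therefore holds host pancreas together with any transplanted cells and what grew around them. Each replicate was a separate mouse. Values are rlog values, which the authors computed from gene counts. They are log2 values corrected for library size and shrunken for genes with few reads, so differences at low levels are understated and levels of different genes are not compared. The depth of each library is unknown here. The median over all genes lay between 7.09 and 7.25 in every mouse.

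Tdh starts the main mitochondrial route of threonine breakdown in the mouse by oxidising threonine, and Gcat splits the product into glycine and acetyl-CoA. Serine is made from a glycolytic intermediate by Phgdh, Psat1 and Psph in that order, and Shmt2 turns serine into glycine in mitochondria while loading a carbon unit onto folate. Glycine is then used by Gatm, the first enzyme of creatine synthesis, and by Gnmt, which methylates it to sarcosine with S-adenosylmethionine. Cbs and Cth join serine to homocysteine and release cysteine. Pancreatic acinar cells, which make the digestive enzymes, are known for a high use of amino acids and for high Gatm.

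All 10 genes had lower means in HFD and in ob/ob than in LFD, where 7168 and 7059 of all 15047 genes had. The median log2 difference of the 10 genes was -1.64 in HFD and -1.87 in ob/ob, where the medians of all genes were 0.03 and 0.04. Across all 15047 genes, limma called 0 genes at an adjusted p-value under 0.05 (Benjamini-Hochberg) in HFD against LFD, a background of 0.0%, with 2985 genes at an unadjusted p-value under 0.05. It called 0 genes (0.0%) in ob/ob against LFD, with 2831 unadjusted, and 0 genes (0.0%) in ob/ob against HFD, with 588 unadjusted. No single difference described here therefore passed the adjusted threshold with all 8 mice. The counts rested on single mice: without HFD replicate 1, limma called 2812 genes in HFD and 89 in ob/ob against LFD, and without ob/ob replicate 1 it called 61 in ob/ob against LFD.

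The tissue was checked with acinar markers, and 27 of 27 were in the table. Their mean rlog value was 17.62, 17.78 and 18.09 in the LFD mice, 17.96, 15.86 and 13.94 in HFD replicates 1, 2 and 3, and 17.22 and 14.24 in ob/ob replicates 1 and 2. HFD replicate 1 thus sat within the LFD range, whereas HFD replicate 3 and ob/ob replicate 2 stood furthest below it. All 27 markers had lower means in HFD and in ob/ob. By single marker, 3 of 27 were below every LFD mouse in all HFD mice, where 12.3% of all genes were. In ob/ob these were 24 of 27, where 21.8% of all genes were. The log2 of the summed level of the acinar markers ranged from 24.75 to 25.34 in LFD, from 20.96 to 25.08 in HFD and from 21.27 to 24.29 in ob/ob. Fibroblast markers (8 of 8 in the table) had mean rlog values of 9.65 to 10.03 in LFD, 10.53 to 11.34 in HFD and 10.93 to 11.76 in ob/ob. Macrophage markers (7 of 7) had 8.80 to 9.24, 9.38 to 10.24 and 10.11 to 10.70. Neutrophil markers (4 of 5, Ly6g not analysed here) had 5.67 to 6.52, 7.08 to 8.84 and 6.92 to 7.25. The means of the fibroblast, macrophage and neutrophil lists were thus above all LFD mice in all 5 obese mice, HFD replicate 1 included. By single marker, 5 of 8, 3 of 7 and 2 of 4 were above every LFD mouse in all HFD mice, where 12.9% of all genes were. In ob/ob these were 7 of 8, 7 of 7 and 3 of 4, where 24.1% of all genes were. Ductal markers (7 of 7) had means of 8.28 to 8.52 in LFD, 8.55 to 9.09 in HFD and 7.62 to 8.55 in ob/ob. Islet markers (8 of 8) had 8.86 to 9.96 in LFD, 8.62 to 9.10 in HFD and 9.80 to 10.72 in ob/ob, so the ob/ob range overlapped LFD. By single marker, 6 of 8 were above every LFD mouse in both ob/ob mice, where 24.1% of all genes were so ordered. The part that these cell types had in the differences was not tested. In bulk tissue, fewer acinar cells and less RNA per acinar cell cannot be told apart.

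Threonine breakdown held the largest HFD minus LFD difference of the 10 genes, which is how Tdh was selected. Tdh, threonine dehydrogenase (chr14:63492347-63509092, minus strand, GRCm38), had rlog values of 5.67, 7.03 and 6.31 in LFD, 3.66, 3.08 and 2.37 in HFD, and 3.87 and 2.82 in ob/ob. All 5 obese mice lay below all LFD mice, with a gap of 1.80 between the lowest LFD and the highest obese mouse. Means were 6.34 ± 0.68 (SD, n = 3) in LFD, 3.04 ± 0.64 (n = 3) in HFD and 3.34 ± 0.74 (n = 2) in ob/ob. The HFD minus LFD difference was -3.30, or 9.85-fold, which ranked 2 from the lowest among 15047 genes. Tdh was at a low level, with a mean of 4.35 over the 8 mice, under the mean rlog of 5 required in an alternative fit. The counting error of this fold is unknown. In ob/ob minus LFD, which shares its LFD mice with the comparison that selected Tdh, the difference was -2.99 ± 0.54 (SE), or 7.96-fold, and did not pass (adjusted p = 0.137, limma). Without HFD replicate 1, whose values enter the estimate of variance, the adjusted p of the ob/ob difference was 0.0498, in a range of 0.0498 to 0.864 over 14 alternatives.

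Gcat, the enzyme that follows Tdh (chr15:79030874-79038353, plus strand), was not lower in each obese mouse. Its rlog values were 12.11, 12.36 and 12.57 in LFD, 12.15, 10.16 and 9.05 in HFD, and 11.44 and 8.87 in ob/ob. HFD replicate 1 was at the LFD level and the other 4 obese mice were below it. The log2 difference was -1.89 in HFD (3.71-fold) and -2.19 ± 0.91 in ob/ob (4.57-fold, adjusted p = 0.255, limma). In HFD replicate 1, Tdh was at -2.68 from the LFD mean and Gcat at -0.20, and in ob/ob replicate 1 they were at -2.47 and -0.90. In HFD replicate 3 and ob/ob replicate 2, Tdh was at -3.96 and -3.52 and Gcat at -3.30 and -3.48. Because Tdh was selected for its low HFD values, its distance from Gcat there is a description.

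**Figure D1:**
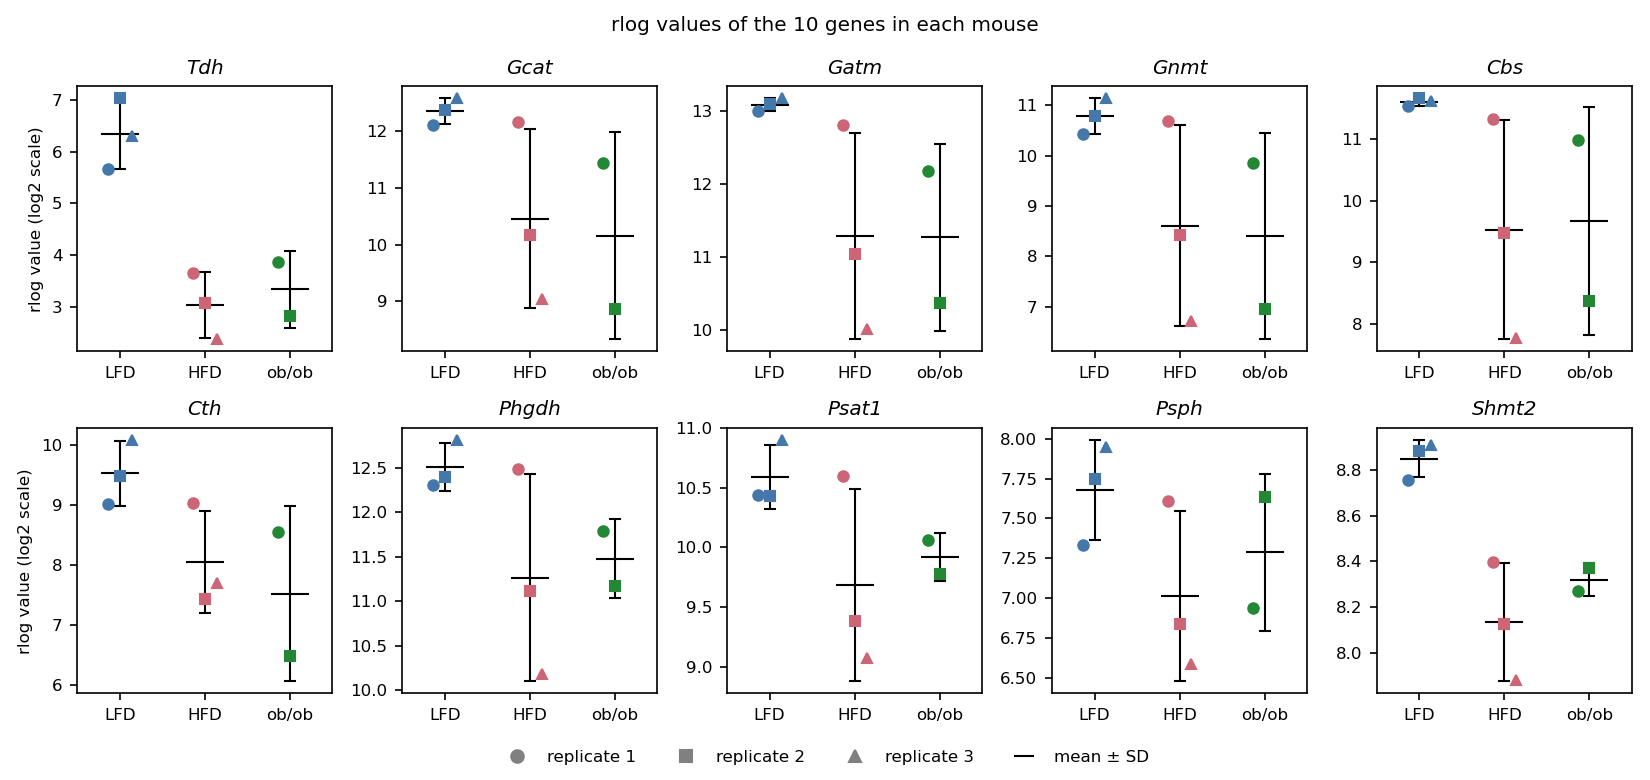
rlog values (log2 scale, y axis) of the 10 genes in each mouse by group (x axis); points are mice, marker shape gives the replicate, and lines give mean ± SD. Tdh, Gatm, Cbs and Shmt2 were below the LFD range in all 5 obese mice, and HFD replicate 1 (circle) was within the LFD range for the other 6 genes.

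Gatm and Gnmt, which use glycine, were furthest below LFD in the same mice as Gcat. Gatm (chr2:122594467-122611303, minus strand), which joins arginine and glycine to guanidinoacetate, had rlog values of 13.00, 13.10 and 13.18 in LFD, 12.81, 11.05 and 10.01 in HFD, and 12.18 and 10.37 in ob/ob. The LFD mice were within a narrow range (13.09 ± 0.09, n = 3), and all obese mice were below it, by as little as 0.19 for HFD replicate 1. The difference was -1.81 in HFD (3.49-fold) and -1.82 ± 0.76 in ob/ob (3.52-fold, adjusted p = 0.256, limma). Gnmt, glycine N-methyltransferase (chr17:46725664-46729168, minus strand), had 10.43, 10.78 and 11.14 in LFD, 10.69, 8.43 and 6.71 in HFD, and 9.84 and 6.95 in ob/ob. Its HFD mean was 8.61 ± 1.99, a spread over mice as wide as the difference of -2.18 (4.52-fold), and its ob/ob difference was -2.39 ± 1.11 (5.23-fold, adjusted p = 0.280). HFD replicate 1 was again among the LFD mice for Gnmt.

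The transsulfuration genes were likewise nearest to LFD in HFD replicate 1 among the HFD mice. Cbs, cystathionine beta-synthase (chr17:31608894-31637238, minus strand), had rlog values of 11.54, 11.66 and 11.61 in LFD, 11.33, 9.48 and 7.78 in HFD, and 10.98 and 8.37 in ob/ob. All obese mice were below the LFD mice, HFD replicate 1 by the least. The difference was -2.07 in HFD (4.21-fold) and -1.93 ± 0.98 in ob/ob (3.81-fold, adjusted p = 0.310, limma). Cth, cystathionine gamma-lyase (chr3:157894248-157925077, minus strand), which cleaves cystathionine to cysteine, had 9.01, 9.48 and 10.08 in LFD, 9.02, 7.43 and 7.70 in HFD, and 8.55 and 6.48 in ob/ob. HFD replicate 1 was level with the lowest LFD mouse, and Cth was the gene of the 10 with the lowest ob/ob minus HFD difference, -0.53 ± 0.65. Against LFD, the Cth difference was -1.47 in HFD (2.78-fold) and -2.01 ± 0.65 in ob/ob (4.02-fold, adjusted p = 0.210).

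The serine synthesis genes had smaller differences. Phgdh, phosphoglycerate dehydrogenase (chr3:98313170-98339990, minus strand), had rlog values of 12.31, 12.40 and 12.81 in LFD, 12.49, 11.12 and 10.18 in HFD, and 11.79 and 11.17 in ob/ob. Psat1, the aminotransferase of the next step (chr19:15904678-15947337, minus strand), had 10.44, 10.43 and 10.90 in LFD, 10.60, 9.38 and 9.07 in HFD, and 10.06 and 9.78 in ob/ob. In both genes HFD replicate 1 was within the LFD range and the other 4 obese mice were below it. Psph, the phosphatase that completes serine (chr5:129765558-129787449, minus strand), had 7.33, 7.75 and 7.95 in LFD, 7.61, 6.84 and 6.58 in HFD, and 6.94 and 7.64 in ob/ob. Psph overlapped between LFD and each obese group, and only 3 of 5 obese mice were below all LFD mice. The HFD differences were -1.25 for Phgdh, -0.91 for Psat1 and -0.67 for Psph. The ob/ob differences were -1.03 ± 0.57, -0.67 ± 0.41 and -0.39 ± 0.36, with adjusted p-values of 0.336, 0.371 and 0.550 (limma). Psph overlaps Cct6a on the opposite strand of the genome, and since the strand setting of the libraries is not given in the sources used here, reads of the overlap may be shared. Cct6a had differences of 0.30 in HFD and 0.37 in ob/ob.

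Shmt2, mitochondrial serine hydroxymethyltransferase (chr10:127517123-127522444, minus strand), differed by little but with little spread. Its rlog values were 8.76, 8.88 and 8.91 in LFD, 8.40, 8.13 and 7.88 in HFD, and 8.27 and 8.37 in ob/ob. All 5 obese mice were below all LFD mice, with a gap of 0.36. The difference was -0.72 in HFD (1.64-fold) and -0.53 ± 0.20 in ob/ob (1.44-fold, adjusted p = 0.232, limma). Shmt1, the cytosolic enzyme for the same reaction, had differences of 0.09 and 0.05 with overlapping groups. Shmt2 overlaps Ndufa4l2 on the opposite strand, which had differences of 0.63 in HFD and 0.28 in ob/ob.

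Counted over groups, every HFD mouse was below every LFD mouse for 4 of the 10 genes (Tdh, Gatm, Cbs and Shmt2), where 12.3% of all genes were so ordered and 12.9% were ordered the other way. This comparison chose Tdh, and nothing is read from the count. Every ob/ob mouse was below every LFD mouse for 9 of 10 genes, all but Psph, where 21.8% of all genes were so ordered and 24.1% the other way. The LFD mice are the same in both counts. Between ob/ob and HFD, 0 of 10 genes were separated, where 5.42% of all genes were lower and 7.92% higher in every ob/ob mouse. The ob/ob minus HFD differences of the 10 genes ranged from -0.53 ± 0.65 for Cth to 0.31 ± 0.54 for Tdh, all with an adjusted p of 0.9996 (limma). Standard errors of up to 1.11 leave differences of that size between the obese groups undetectable with these mice.

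By mouse, HFD replicate 1 was below the LFD range for 4 of the 10 genes, HFD replicates 2 and 3 and ob/ob replicate 1 for 10, and ob/ob replicate 2 for 9. The median difference of the 10 genes from the LFD mean was -0.23, -2.07 and -2.71 in HFD replicates 1, 2 and 3, and -0.82 and -2.88 in ob/ob replicates 1 and 2. That is also the order of the acinar level within each group. Without HFD replicate 1, both other HFD mice were below every LFD mouse for all 10 genes, where 26.6% of all genes were so ordered. The HFD and LFD values chose Tdh, and nothing is read from that count.

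Each difference was therefore also fitted with the acinar marker mean of the mouse as a covariate. The HFD minus LFD difference of Tdh was then -2.66, against -0.35 for Gcat, -0.54 for Gatm, -0.29 for Gnmt and -0.40 for Cbs. Cth, Phgdh, Psat1 and Psph were at -0.56, -0.38, -0.35 and -0.49, and Shmt2 was at -0.58. In ob/ob minus LFD, Tdh was at -2.29 (adjusted p = 0.163, limma), Gcat at -0.49, Gatm at -0.42, Gnmt at -0.31, Cbs at -0.09, Cth at -0.9995, Phgdh at -0.08, Psat1 at -0.06, Psph at -0.19 and Shmt2 at -0.38. The HFD values chose Tdh, and the LFD mice are shared, so these fits describe the 8 mice and do not test Tdh against the other genes. Because the acinar level itself was lower in the obese groups, group and acinar level are only partly separable with 8 mice.

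**Figure D2:**
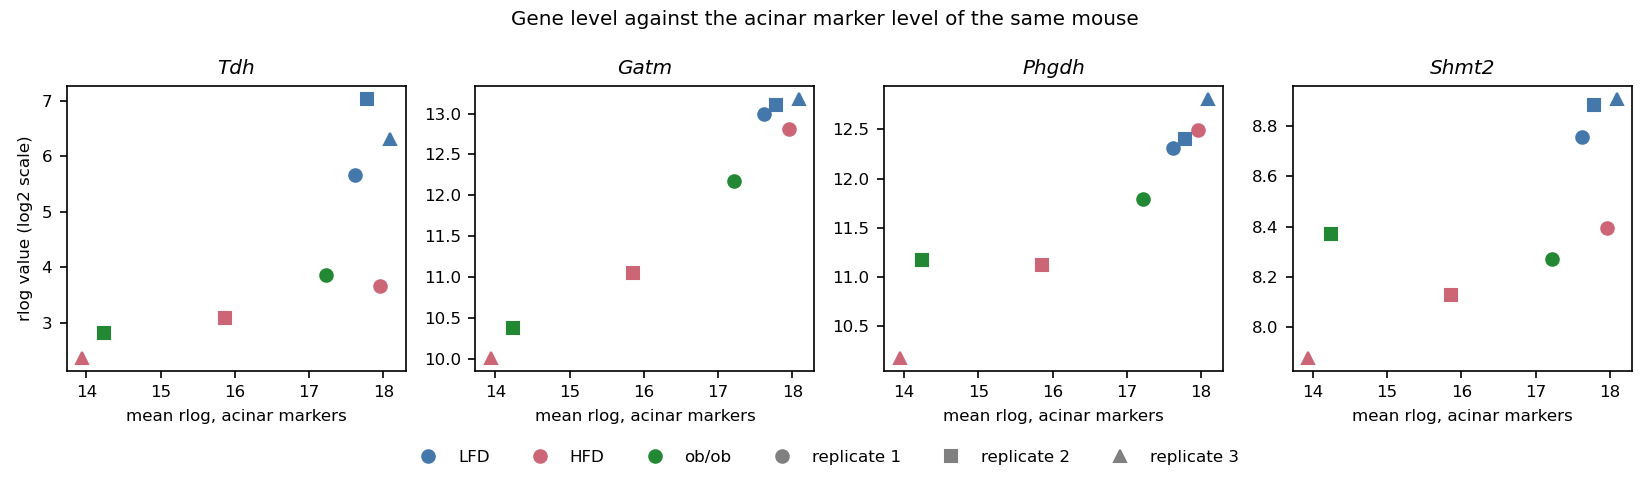
rlog value (log2 scale, y axis) of Tdh, Gatm, Phgdh and Shmt2 against the mean rlog value of 27 acinar markers in the same mouse (x axis); colour gives the group and shape the replicate. HFD replicate 1, with an acinar level of 17.96, was within the LFD range for Phgdh. It was below all LFD mice for Tdh (3.66), Shmt2 (8.40) and Gatm (12.81), for Gatm by 0.19.

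**Figure D3:**
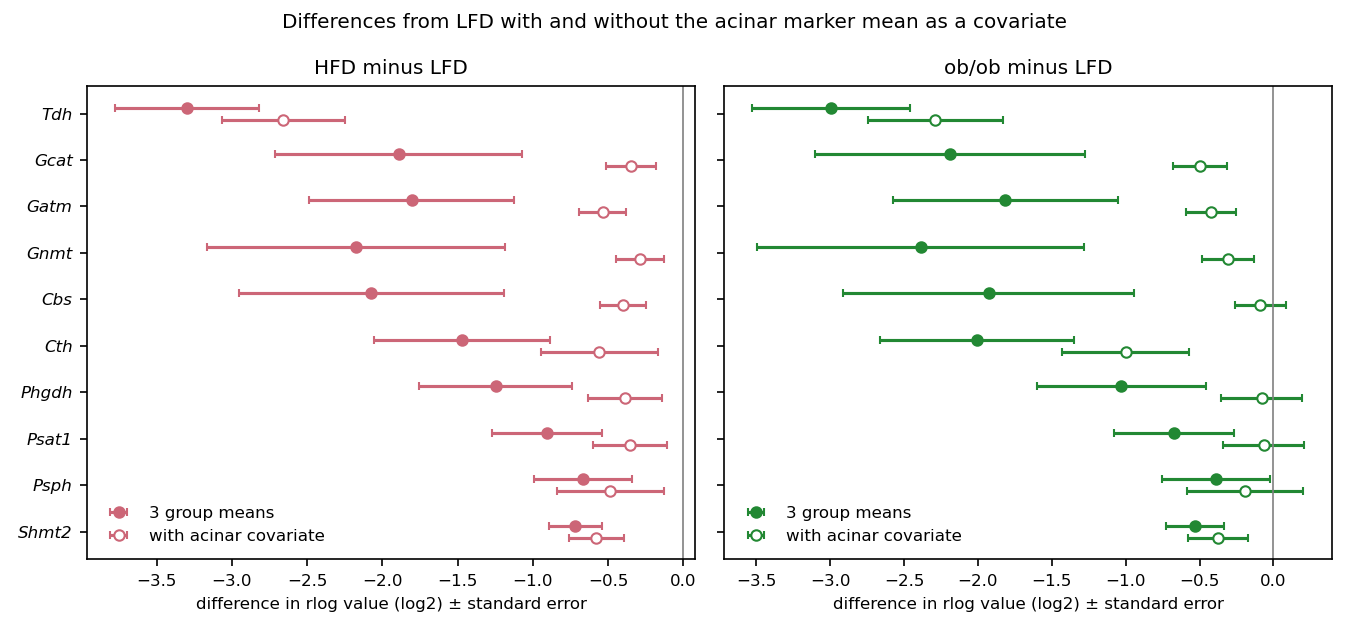
Difference in rlog value from LFD (log2, x axis) ± standard error for each of the 10 genes, in HFD (left) and ob/ob (right); filled points are from the 3 group means and open points from the fit with the acinar covariate. Tdh was at -2.66 and -2.29 with the covariate, and the other 9 genes lay between -0.9995 and -0.06.

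The promoters of Gatm, Gnmt, Cbs and Gcat are shown because the differences of these genes were among those that became smaller with the acinar covariate. They are the 250 bases before the gene start in RefSeq (GRCm38.p6), at chr2:122611278-122611527 (minus strand) for Gatm, chr17:46729166-46729415 (minus strand) for Gnmt, chr17:31637206-31637455 (minus strand) for Cbs and chr15:79030624-79030873 (plus strand) for Gcat. Sequences read 5′ to 3′ in the direction of the gene, and capitals mark the E-box letters CACCTG on either strand, or CACGTG in Cbs.
Gatm: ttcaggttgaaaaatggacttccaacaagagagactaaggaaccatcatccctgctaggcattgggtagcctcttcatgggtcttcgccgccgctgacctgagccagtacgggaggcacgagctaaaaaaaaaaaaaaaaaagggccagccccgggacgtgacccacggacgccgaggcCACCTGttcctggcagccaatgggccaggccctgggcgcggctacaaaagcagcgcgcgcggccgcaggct
Gnmt: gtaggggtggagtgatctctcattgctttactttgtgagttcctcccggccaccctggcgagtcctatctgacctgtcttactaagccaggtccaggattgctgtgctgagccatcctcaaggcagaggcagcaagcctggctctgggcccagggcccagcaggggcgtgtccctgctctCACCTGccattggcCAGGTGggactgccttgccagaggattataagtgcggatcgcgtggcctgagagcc
Cbs: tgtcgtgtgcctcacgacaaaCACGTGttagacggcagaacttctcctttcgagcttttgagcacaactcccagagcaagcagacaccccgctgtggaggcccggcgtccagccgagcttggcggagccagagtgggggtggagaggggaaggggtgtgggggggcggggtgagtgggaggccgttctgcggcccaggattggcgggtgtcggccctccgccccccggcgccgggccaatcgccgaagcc
Gcat: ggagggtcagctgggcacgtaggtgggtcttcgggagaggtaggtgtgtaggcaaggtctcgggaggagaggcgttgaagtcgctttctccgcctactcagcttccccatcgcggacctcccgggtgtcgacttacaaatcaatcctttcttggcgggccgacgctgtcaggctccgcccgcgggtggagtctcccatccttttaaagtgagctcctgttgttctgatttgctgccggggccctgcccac
Gatm holds CACCTG beginning 71 bases before the start, and Gnmt holds it at 70 bases and, on the other strand, at 56 bases. Cbs holds CACGTG at 229 bases, and Gcat holds neither. RefSeq windows were found for 8 of the 10 genes, not for Tdh and Cth, and Psat1 has 2 starts, which gives 9 windows. CACCTG stood in 2 of the 9 windows and in 17.2% of 32851 windows of all genes, and CACGTG in 1 of 9 and in 6.02%. These matches were all in genes shown here, and a link with the acinar level was not tested. The element TGATGNAA, to which ATF4 binds with a C/EBP partner in promoters of amino acid genes, was in 0 of the 9 windows and in 3.45% of all windows, both strands searched.

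The creatine genes beyond Gatm differed in direction. Gamt, which completes creatine from the product of Gatm, had rlog values of 10.63, 10.69 and 11.03 in LFD, 10.48, 8.68 and 7.31 in HFD, and 9.91 and 7.86 in ob/ob. All obese mice were below the LFD mice, with differences of -1.97 ± 0.76 in HFD and -1.90 in ob/ob (adjusted p = 0.222 and 0.270, limma). Slc6a8, the creatine transporter of the cell membrane, had 6.90, 6.85 and 6.37 in LFD, 7.80, 7.48 and 9.16 in HFD, and 7.66 and 7.99 in ob/ob. The LFD mice were the 3 lowest of the 8 for Slc6a8, with differences of 1.44 ± 0.41 in HFD and 1.12 in ob/ob (adjusted p = 0.180 and 0.25). Ckb, the brain-type creatine kinase, had 6.22, 6.93 and 6.01 in LFD, 6.68, 8.20 and 8.86 in HFD, and 7.67 and 7.73 in ob/ob. HFD replicate 1 overlapped the LFD mice for Ckb, and the differences were 1.52 and 1.32 (adjusted p = 0.199 and 0.262). The other kinases did not share the direction of Ckb: Ckm, the muscle type, had differences of -0.81 and -1.94, and the mitochondrial Ckmt1 had 0.63 and -0.67. None of these differences was called by limma. With the acinar covariate, the differences in HFD were -0.52 for Gamt, 0.94 for Slc6a8 and 0.83 for Ckb, and those in ob/ob were -0.31, 0.57 and 0.55.

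**Figure D4:**
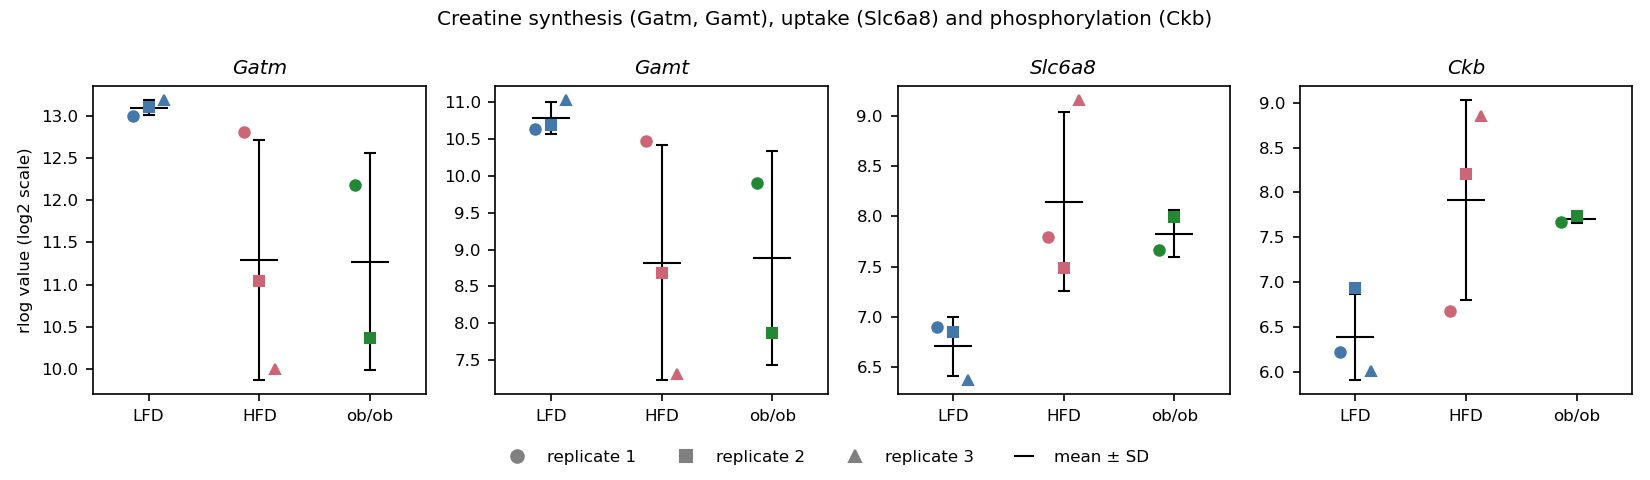
rlog values (log2 scale, y axis) of Gatm, Gamt, Slc6a8 and Ckb in each mouse by group (x axis); points are mice, shape gives the replicate, and lines give mean ± SD. All 5 obese mice were below the LFD mice for Gatm and Gamt and above them for Slc6a8.

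Of glycine breakdown, the partner enzyme named was Gldc, the decarboxylase of the mitochondrial glycine cleavage system. Gldc had rlog values of 2.88, 2.94 and 2.89 in LFD, 3.29, 4.98 and 7.28 in HFD, and 3.97 and 3.46 in ob/ob. No obese mouse was as low as the LFD mice for Gldc, and HFD replicate 3, with the lowest acinar level, stood furthest above. The LFD values of Gldc were at a low level, where rlog values are shrunken, so their small spread is not read as precision. The difference was 2.28 ± 0.83 in HFD and 0.81 in ob/ob (adjusted p = 0.213 and 0.626, limma). With the acinar covariate it was 1.19 in HFD and -0.39 in ob/ob, so its direction in ob/ob turned.

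Of the methionine cycle, which supplies the methyl group that Gnmt spends, Mat1a, the S-adenosylmethionine synthetase known from liver, had rlog values of 10.34, 10.85 and 10.95 in LFD, 9.80, 7.97 and 6.56 in HFD, and 9.52 and 6.98 in ob/ob. All 5 obese mice were below the LFD mice, and the differences were -2.60 and -2.46 (adjusted p = 0.193 and 0.235, limma), or -1.02 and -0.72 with the acinar covariate. Of the hepatocyte markers 4 of 8 were analysed here. Their mean was 4.75 to 4.99 in LFD, 4.48 to 6.29 in HFD and 5.02 to 6.02 in ob/ob. The HFD range overlapped LFD, and both ob/ob mice were above LFD, replicate 2 by a narrow margin. Single markers were divided, with 2 of 4 lower by mean in each obese group. In ob/ob, Alb (5.14 against 5.71 in LFD) and Ttr (8.65 against 8.90) had lower means. Apoa1 (6.40 against 3.715) and Apoa2 (1.89 against 1.24) had higher means. In HFD, Alb (4.94) and Ttr (7.49) had lower means, and Apoa2 (1.82) and Apoa1 (6.98) had higher means. Apoa1 had a wide spread in HFD, from 3.70 to 13.46, against 3.60 to 3.89 in LFD. The highest mean of the hepatocyte list, 6.29, was that of HFD replicate 3. Ahcy, which removes the S-adenosylhomocysteine left by methylation, had differences of -1.33 and -1.53. Sardh, which oxidises the sarcosine made by Gnmt, had -1.30 and -1.17. Mat2a, which makes the same S-adenosylmethionine in most tissues and is named here after its values were seen, had 0.28 and 0.26, and the 10 genes of the methionine cycle were divided into 5 with a lower and 5 with a higher mean in each obese group.

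A gene of amino acid uptake had the lowest adjusted p of the related genes. Slc7a5, the light chain of the LAT1 transporter for large neutral amino acids, had rlog values of 9.69, 9.73 and 9.94 in LFD, 8.31, 8.08 and 8.17 in HFD, and 8.75 and 8.11 in ob/ob. All obese mice were below all LFD mice, HFD replicate 1 included, with differences of -1.60 ± 0.20 and -1.35 (adjusted p = 0.124 and 0.137, limma). With the acinar covariate they were -1.40 and -1.14. Slc6a9, a glycine transporter, had differences of -1.36 and -1.34.

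Asparagine synthetase, Asns, a known target of the amino acid response factor ATF4 as are Phgdh, Psat1 and Shmt2, had rlog values of 12.61, 12.74 and 12.75 in LFD, 12.38, 10.93 and 9.99 in HFD, and 12.05 and 10.24 in ob/ob. Its differences were -1.60 and -1.56, or -0.46 and -0.30 with the acinar covariate. Atf4 itself had 11.39, 11.68 and 11.90 in LFD, 11.28, 10.74 and 10.62 in HFD, and 10.97 and 10.64 in ob/ob, with differences of -0.78 and -0.85 (adjusted p = 0.183 and 0.204, limma), or -0.48 and -0.53 with the acinar covariate. Both genes were below all LFD mice in all 5 obese mice.

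The 7 lists of related genes, 86 genes in the table, had 0 genes with an adjusted p-value under 0.05 in limma in any of the comparisons. Among 20 targets and regulators of ATF4, 14 had a lower mean in HFD and 15 in ob/ob, with medians of -0.74 and -0.76. Among 11 amino acid transporters, 9 and 10 were lower, with medians of -0.49 and -0.53, and among 11 genes of cysteine, sulfide and glutathione, 8 and 9 were lower, with medians of -0.43 and -0.58. These lists thus lay below the medians of all genes. The lists of glycine and serine breakdown (12 genes, medians -0.09 and -0.11), the folate cycle (17 genes, -0.25 and -0.16) and the methionine cycle (10 genes, -0.02 and -0.04) were divided in direction. In the folate list, the mitochondrial Aldh1l2 had -1.78 and -1.32 and the cytosolic Aldh1l1 -1.26 and -1.58, while Folr2, a folate receptor known from macrophages, had 0.19 and 1.36. Creatine synthesis and use (5 genes) had medians of 0.63 in HFD and -0.67 in ob/ob, and the middle gene in both was Ckmt1, a mitochondrial creatine kinase, at those values. Its HFD mean rested on HFD replicate 3, with an rlog value of 10.06 against 7.18 to 7.99 in LFD and 7.38 and 7.54 in the other HFD mice.

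**Figure D5:**
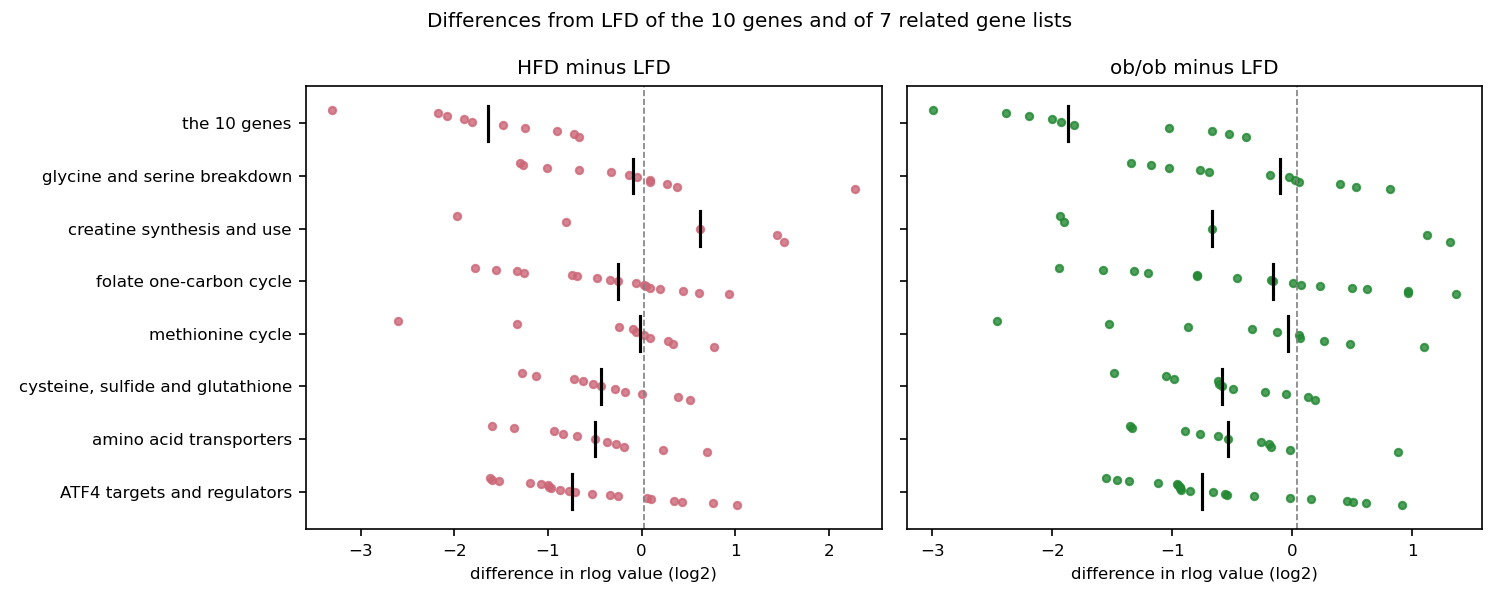
Difference in rlog value from LFD (log2, x axis) of each gene in the 10-gene set and in 7 related lists (y axis), for HFD (left) and ob/ob (right); points are genes, bars are list medians and the dashed line is the median of all genes. The 10 genes all lay below 0, with medians of -1.64 and -1.87, and the ATF4 list followed with -0.74 and -0.76.

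Over the 8 mice, the genes with rlog values most like those of Tdh, by Pearson's r among 15046 other genes, were Acot6 (0.992), Mogs (0.987), Mt1 (0.984), Galr1 (0.979) and Gramd1a (0.978). Mt1, a metallothionein, had rlog values of 11.67 to 12.36 in LFD, 9.20 to 10.50 in HFD and 9.28 to 10.63 in ob/ob. Mogs, which trims glucose from new N-glycans, had 10.09 to 10.34, 8.91 to 9.44 and 8.93 to 9.29. Both were separated between LFD and the obese mice as Tdh was. The genes most like Gatm were Ccdc149, Ero1lb, Qsox2, Asns and Gamt, with r from 0.997 to 0.999. Ero1lb and Qsox2 oxidise thiols of proteins passing through the secretory pathway. The 8 points share their groups and the acinar level, so r describes these mice only.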

How the data were processed

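RNA-Seq of pancreas from 8 mice was used, grouped by the sample titles. The authors quantified transcripts (Gencode M18, GRCm38.p6) with Salmon 0.11.3, summed them by gene and deposited rlog values from DESeq2 1.22.2, on a log2 scale and normalised for library size, for 15047 genes. Neither the gene filter nor the use of groups by rlog was given in the sources used here. The study tested counts with DESeq2, but counts were not used here, so no count test was run and counting error is unknown.

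Differences were fitted with limma 3.58.1 in R 4.3.3, with 1 mean per group, all 8 mice, a variance trend and Benjamini-Hochberg adjustment over all genes, and the code was tested on simulated data. The 10 genes, related lists and acinar markers were chosen with earlier results of these data known. Other genes are named as the 2 with the largest difference per list and comparison, as partner enzymes, or by likeness to Tdh and Gatm, and the text gives a selection of these. Cct6a and Ndufa4l2 were named for their overlap, and the E-box letters were searched after the data were seen. Gene coordinates are from Gencode M21 (GRCm38) and promoters from RefSeq (GRCm38.p6). Tables and figures used Python 3.11.15, pandas 2.3.3 and matplotlib 3.10.9. The alternatives were no variance trend, only the 2 groups compared, a mean rlog of at least 5, median centring, quantile normalization, a replicate block, the acinar covariate and leaving out each mouse. The acinar covariate for related genes was added after the data were seen.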

Additional observations from a re-analysis of the deposited data

Results flagged for a closer look

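Slc25a32, the mitochondrial folate carrier, was below all LFD mice in every HFD mouse and above them in every ob/ob mouse. The upward separation was a near tie, with the lowest ob/ob mouse at 7.914 and the highest LFD mouse at 7.907. Its mean rlog values were 7.82 ± 0.08 (SD, n = 3) in LFD, 7.48 ± 0.18 (n = 3) in HFD and 8.05 ± 0.19 (n = 2) in ob/ob. The ob/ob minus HFD difference was 0.57 ± 0.20 (SE) and did not pass limma's test (adjusted p = 0.9996). Among 15047 genes, 38 (0.253%) had HFD and ob/ob on opposite sides of LFD in this way, and 96 genes were scanned here. Groups of 3, 3 and 2 mice were too small for a search for outlying mice.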

How the results depend on the processing

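The 149 differences of the 10 genes computed under 15 alternatives kept their direction in HFD against LFD and in ob/ob against LFD. A mean rlog of at least 5 left out Tdh. Of the ob/ob against LFD differences, 1 of 149 had an adjusted p-value under 0.05 in limma (Tdh without HFD replicate 1, 0.0498). In ob/ob against HFD, 18 of 149 turned. Gatm was 0.064 with quantile normalization and 0.11 with the acinar covariate, and Cbs was -0.29 with the replicate block. Leaving out each mouse gave ranges of -0.22 to 0.83 for Tdh, -1.59 to 0.99 for Gcat, -0.92 to 0.89 for Gatm, -1.66 to 1.24 for Gnmt, -1.16 to 1.45 for Cbs, -1.56 to 0.50 for Cth, -0.32 to 0.83 for Phgdh, -0.072 to 0.69 for Psat1 and -0.073 to 0.63 for Psph. Gldc in ob/ob against LFD was -0.39 with the acinar covariate. The causes were not tested.

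Genes called in HFD against LFD numbered 0, and 1 with only the 2 groups, and leaving out each mouse gave 0 to 2812, the latter without HFD replicate 1. In ob/ob against LFD they numbered 0, 38 with only the 2 groups, 1 with the acinar covariate and 0 to 89 leaving out each mouse (89 without HFD replicate 1, 61 without ob/ob replicate 1). In ob/ob against HFD they numbered 0, 1 with the acinar covariate and 0 to 1 leaving out each mouse. The 10 genes separated between HFD and LFD numbered 4 to 10 leaving out each mouse (8 without LFD replicate 1 and 10 without HFD replicate 1, where 17.0% and 26.6% of all genes were lower in every HFD mouse). Those between ob/ob and LFD numbered 9 to 10, where 25.4% to 34.8% of all genes were lower, and those between ob/ob and HFD 0 to 4 (4 higher without HFD replicate 1, where 14.9% of all genes were). Where 1 ob/ob mouse was left, it was assumed to vary like the other groups.

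The replicate block called 0 genes in each comparison (3255, 3243 and 467 at an unadjusted p-value under 0.05), as the unpaired fit did. Same-numbered LFD and HFD mice had correlations of -0.06, 0.11 and -0.28 between their deviations from the group means, LFD and ob/ob mice -0.10 and 0.13, and HFD and ob/ob mice 0.59 and 0.30. With 2 ob/ob mice, the deviations of 1 mirror those of the other, so their correlations with any mouse differ only in sign. HFD replicate 1 had 0.59 with ob/ob replicate 1 and -0.59 with ob/ob replicate 2. The correlations with the 2 ob/ob mice are therefore not independent checks of pairing. Not all same-numbered pairs passed 0.1, a cut-off with no test behind it, and the numbers were not taken to pair the mice.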
